A study of Rattus norvegicus with 12 samples.

Results

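This account follows the microRNA genes of the miR-143, miR-145, miR-199 and miR-214 numbers in rat liver, whatever letter or copy suffix they carry. Matching these numbers to the gene names of the deposited table found 4 genes, Mir143, Mir145, Mir199a2 and Mir214, among 444 features, of which 424 carry a microRNA name. They stand in 2 genomic clusters of 2 genes each. All 4 passed the filter on low values, which kept the 293 features detected in 3 or more of 12 libraries.

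The libraries are small RNA libraries of whole liver from male Sprague-Dawley (Jcl:SD) rats, an outbred stock, that entered dosing at 7 weeks of age. CAF rats were given caffeine by mouth at 120 mg/kg, DEX rats dextromethorphan hydrobromide monohydrate at 100 mg/kg, CAF+DEX rats both drugs at these doses, and Control rats sterile distilled water, the vehicle of every group, for 5 days. Liver was taken 1 h after the last dose; each group had 5 rats, and 3 libraries per group are in the table. Caffeine blocks adenosine receptors, and dextromethorphan is a cough suppressant. No label says which rat gave which library, so p-values measure the spread between these libraries. The numbers in the column headers are used here only as names.

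MicroRNAs are short RNAs cut from hairpin precursors. One arm of the hairpin is loaded into an Argonaute protein and guides it to messenger RNAs, mainly through the seed, bases 2 to 8 of the arm. MiR-143 and miR-145 are made from 1 long primary transcript and are best known from vascular smooth muscle, where serum response factor and myocardin drive them and where they favour the contractile state. MiR-199a and miR-214 are made from an opposite-strand transcript inside the dynamin 3 gene and are known from mesenchymal cells, among them hepatic stellate cells, the pericytes of the sinusoid that store retinoids and become collagen-producing cells in injured liver. Hepatocytes make up most of the liver mass, and smooth muscle and stellate cells are a small part of it.

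The sequences are shown because each gene gives 2 mature arms while the table gives 1 value per hairpin gene, so a level below is the sum of both arms. They are RefSeq sequences on GRCr8, 5′ to 3′, with the seed in capitals; RefSeq matched all 4 genes.
rno-miR-143-5p: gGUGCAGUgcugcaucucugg
rno-miR-143-3p: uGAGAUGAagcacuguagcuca
rno-miR-145-5p: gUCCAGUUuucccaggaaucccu
rno-miR-145-3p: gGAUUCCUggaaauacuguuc
rno-miR-199a-5p: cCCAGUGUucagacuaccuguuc
rno-miR-199a-3p: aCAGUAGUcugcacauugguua
rno-miR-214-5p: aGAGUUGUcaugugucu
rno-miR-214-3p: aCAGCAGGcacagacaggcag
The 8 seeds all differ, so genes of the same cluster carry different seeds. The most seed positions that 2 arms hold in common is 5 of 7, in 3 pairs: miR-199a-3p with miR-214-3p, miR-199a-3p with miR-214-5p, and miR-143-3p with miR-214-5p. The longest run of bases that any 2 of the 8 arms have in common is 6 bases, between miR-145-3p and miR-199a-5p. No other mature arm in the RefSeq table has any of these 8 seeds.

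The 3 hairpins that RefSeq gives for these genes are shown with the annotated arms in capitals, since the reads counted for a gene come from its hairpin.
Mir143: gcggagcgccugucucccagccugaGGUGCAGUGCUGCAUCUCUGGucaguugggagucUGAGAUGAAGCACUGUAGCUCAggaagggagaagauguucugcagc
Mir145: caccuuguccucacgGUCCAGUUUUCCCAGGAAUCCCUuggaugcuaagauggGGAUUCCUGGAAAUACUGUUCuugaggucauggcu
Mir214: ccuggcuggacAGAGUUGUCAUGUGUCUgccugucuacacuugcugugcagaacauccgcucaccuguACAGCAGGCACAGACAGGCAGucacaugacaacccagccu
The arms of Mir143 and Mir145 are 13 and 15 bases apart, while those of Mir214 are 40 bases apart. RefSeq also places Mir3120 on the other strand of Mir214, with 106 bases of the 2 hairpins in common. Its mature arm faces bases 28 to 48 of the Mir214 hairpin, which includes 1 base of miR-214-5p and 0 bases of miR-214-3p.
rno-miR-3120: cACAGCAAguguagacaggca
Mir3120 was not analysed here, and no source used here states whether counting used strand, so reads of the 2 strands cannot be told apart in the Mir214 value.

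In the deposited table, on rn7, Mir145 (ENSRNOG00000035474) lies on the minus strand of chromosome 18 from 55099640 to 55099727, and Mir143 (ENSRNOG00000035603) from 55101006 to 55101110, with 1278 bases between them. Mir199a2 (ENSRNOG00000036364) lies on the plus strand of chromosome 13 from 74582954 to 74583063, and Mir214 (ENSRNOG00000035513) from 74588372 to 74588481, with 5308 bases between them. In the RefSeq annotation of GRCr8, Mir143 and Mir145 lie within the span of the long noncoding RNA gene Carmn, on the same strand, and Mir199a2 and Mir214 lie within that of Dnm3, on the opposite strand. Exon or intron positions were not analysed here.

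Depth was 2863572 to 3418568 reads per library, recovered from the deposited values, with 258 to 273 features above 0. Values are FPKM, reads scaled to the length of the hairpin and to the total of reads on the listed features. A level is therefore a share of the library's microRNA reads, and in whole liver fewer cells of a type and less RNA per cell cannot be told apart.

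Mir143 was by far the most abundant of the 4, and Mir214 by far the least abundant. Over the 12 libraries the median level was 210417 FPKM for Mir143, 25250 FPKM for Mir145, 24188 FPKM for Mir199a2 and 77.8 FPKM for Mir214. Mir143 ranked between 12 and 17 among all features in a library, Mir145 between 45 and 55, Mir199a2 between 48 and 61 and Mir214 between 164 and 187. The order of Mir143 above Mir145 and Mir199a2, and of these above Mir214, was the same in every library. Mir145 and Mir199a2 were neighbours in that order whose levels could not be separated, with a Mir145 to Mir199a2 ratio of 0.910 to 1.43 across libraries. As shares of reads, Mir143 took 1.64 to 2.57% of a library and Mir214 at most 0.0011%.

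**Figure D1:**
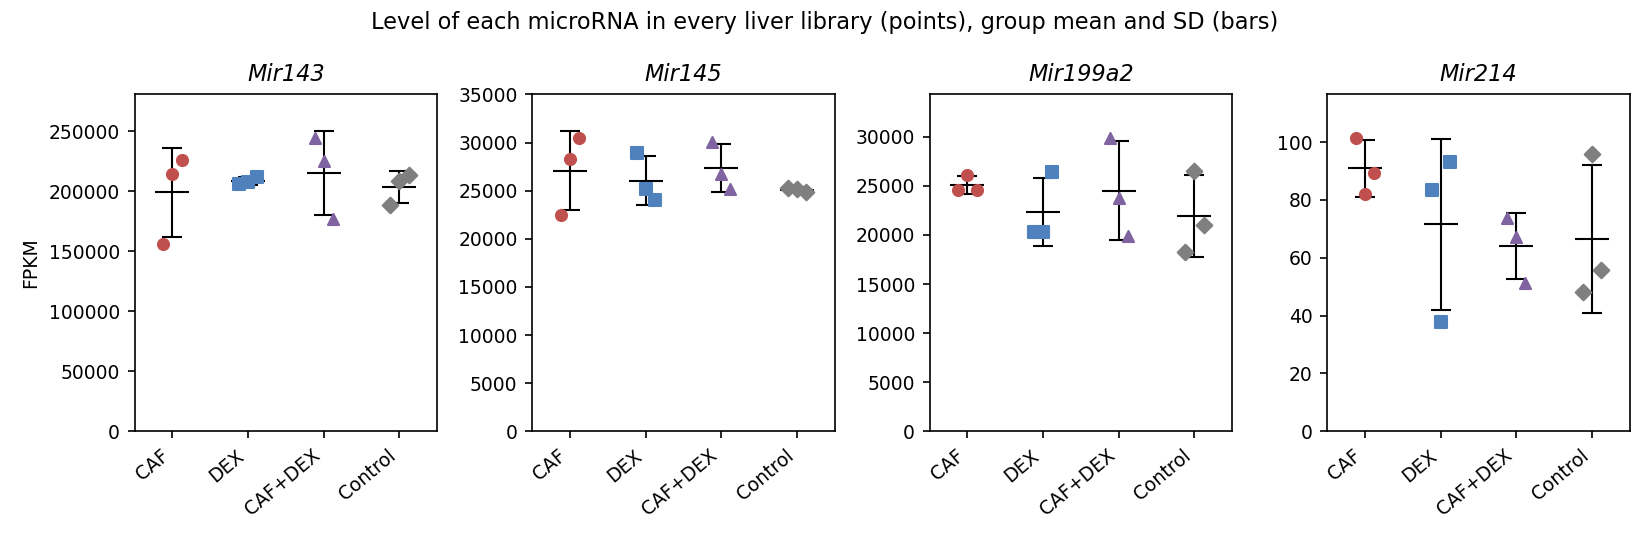
FPKM of each microRNA gene on a linear axis from 0, by treatment group; points are the 3 libraries, bars the group mean and SD. The groups overlap for each gene against Control, and the widest relative spread is that of Mir214, from 37.9 to 101.6 FPKM.

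Mir143, whose arm miR-143-3p is a long-known smooth muscle microRNA, did not separate the groups. It had 156324, 214685 and 225757 FPKM in CAF, 205615, 207993 and 212166 FPKM in DEX, 244631, 224730 and 176709 FPKM in CAF+DEX, against 188135, 208668 and 213409 FPKM in Control. The lowest and the highest of all 12 libraries were CAF library 1 and CAF+DEX library 1, both in caffeine groups, and both groups spread around the Control range. Means were 198922 ± 37304 FPKM in CAF, 208591 ± 3316 in DEX, 215357 ± 34917 in CAF+DEX and 203404 ± 13434 in Control (SD, n = 3 each). The 47003 to 80792 reads behind these values make counting error negligible beside the spread between libraries. The log2 difference was -0.05 (SE 0.13, 95% interval -0.34 to 0.24) in CAF against Control, 0.04 (-0.25 to 0.33) in DEX against Control and 0.07 (-0.22 to 0.36) in CAF+DEX against Control. Limma with Benjamini-Hochberg adjustment over all 293 features gave adjusted p = 0.95, 1.0 and 0.986 for these 3 comparisons. A rise above 1.29-fold or a fall below 0.79-fold lay outside all 3 intervals.

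Mir145, which in smooth muscle represses KLF4, a factor of the dedifferentiated state, was the steadiest of the 4. It had 22495, 28253 and 30513 FPKM in CAF, 28936, 25162 and 24008 FPKM in DEX, 30081, 26771 and 25171 FPKM in CAF+DEX, against 25299, 25201 and 24821 FPKM in Control. The 3 Control libraries lay within a narrow band, at 25107 ± 253 FPKM (SD, n = 3), and every treated group reached beyond it. Means of the treated groups were 27087 ± 4134 FPKM in CAF, 26035 ± 2577 in DEX and 27341 ± 2504 in CAF+DEX (SD, n = 3 each). CAF+DEX had all 3 libraries above the Control mean, CAF and DEX 2 of 3 each. The log2 difference from Control was 0.10 (SE 0.11, 95% interval -0.14 to 0.33) in CAF and 0.05 (-0.19 to 0.28) in DEX. In CAF+DEX it was 0.12 (-0.11 to 0.35). The adjusted p values from limma were 0.84, 1.0 and 0.867. Without CAF library 1 the difference of CAF from Control was 0.23, still short of the threshold at a limma adjusted p = 0.282.

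Mir199a2, a gene of stellate cells and fibroblasts whose 2 arms both act as mature microRNAs, had 24584, 26094 and 24585 FPKM in CAF, 20262, 20349 and 26370 FPKM in DEX, 29919, 23792 and 19848 FPKM in CAF+DEX, against 18302, 26491 and 21033 FPKM in Control. The 3 CAF libraries were close together and lay above 2 of the 3 Control libraries, but Control library 3 was higher than all of them. Means were 25088 ± 871 FPKM in CAF, 22327 ± 3502 in DEX, 24520 ± 5075 in CAF+DEX and 21942 ± 4170 in Control (SD, n = 3 each). The log2 difference from Control was 0.21 (SE 0.16, 95% interval -0.13 to 0.55) in CAF and 0.03 (-0.31 to 0.37) in DEX. In CAF+DEX it was 0.16 (-0.19 to 0.50). The adjusted p values from limma were 0.689, 1.0 and 0.877. Leaving out Control library 3 moved the CAF difference to 0.35, with a limma adjusted p = 0.425. Recovered reads were not whole in 12 of 12 libraries for Mir199a2, 11 for Mir143, 10 for Mir145 and 4 for Mir214, so the levels are uncertain where reads were split between features; the part of such splitting was not tested.

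Mir214, which is known to be raised in fibrotic tissue, rested on few reads. Its counts were 32, 28 and 29.5 reads in CAF, 27, 13.5 and 34.5 in DEX, 25.5, 24 and 19 in CAF+DEX, against 17, 36 and 19 in Control. For the highest library, Control library 3, the exact Poisson 95% interval was 25.2 to 49.8 reads. For the lowest, DEX library 2, the same formula gave 7.29 to 22.9 reads. That interval is approximate because 13.5 is not a whole count. Both cover counting error only. In FPKM, Mir214 had 101.6, 81.9 and 89.3 in CAF, 83.4, 37.9 and 93.2 in DEX, 73.7, 67.1 and 51.4 in CAF+DEX, against 48.2, 95.7 and 55.7 in Control. The CAF libraries were again high and close together, above 2 of 3 Control libraries and below Control library 3 in 2 of 3 cases. Means were 90.9 ± 9.94 FPKM in CAF, 71.5 ± 29.5 in DEX, 64.1 ± 11.5 in CAF+DEX and 66.5 ± 25.6 in Control (SD, n = 3 each). The log2 difference from Control was 0.48 (SE 0.34, 95% interval -0.27 to 1.23) in CAF and 0.07 (-0.68 to 0.82) in DEX. In CAF+DEX it was -0.01 (-0.76 to 0.74), and the limma adjusted p values were 0.68, 1.0 and 1.0. These intervals leave room for a change of up to 2.35-fold in CAF, so only a large difference in this gene could have been detected. Its pooled SD within groups was 0.44 on the log2 scale, and counting error at its mean reads gives a CV of 19.8%. The part of depth in this spread was not tested.

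Set against all features, the count of 0 members called was close to the background of each comparison. The share of the 293 features that passed in limma was 0.683% in CAF against Control, and 0% in DEX against Control and in CAF+DEX against Control. At an unadjusted p under 0.05 the background was 13%, 4.44% and 10.2% of features in these 3 comparisons, and 0 members reached it. No member had groups that did not overlap in them, where the background was 14.7%, 10.9% and 14.7% of features. The median log2 difference of the 4 genes was 0.15 in CAF against Control, 0.04 in DEX against Control and 0.10 in CAF+DEX against Control, beside 0.00, 0.00 and -0.01 over all features tested. These 3 comparisons share the Control libraries.

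**Figure D2:**
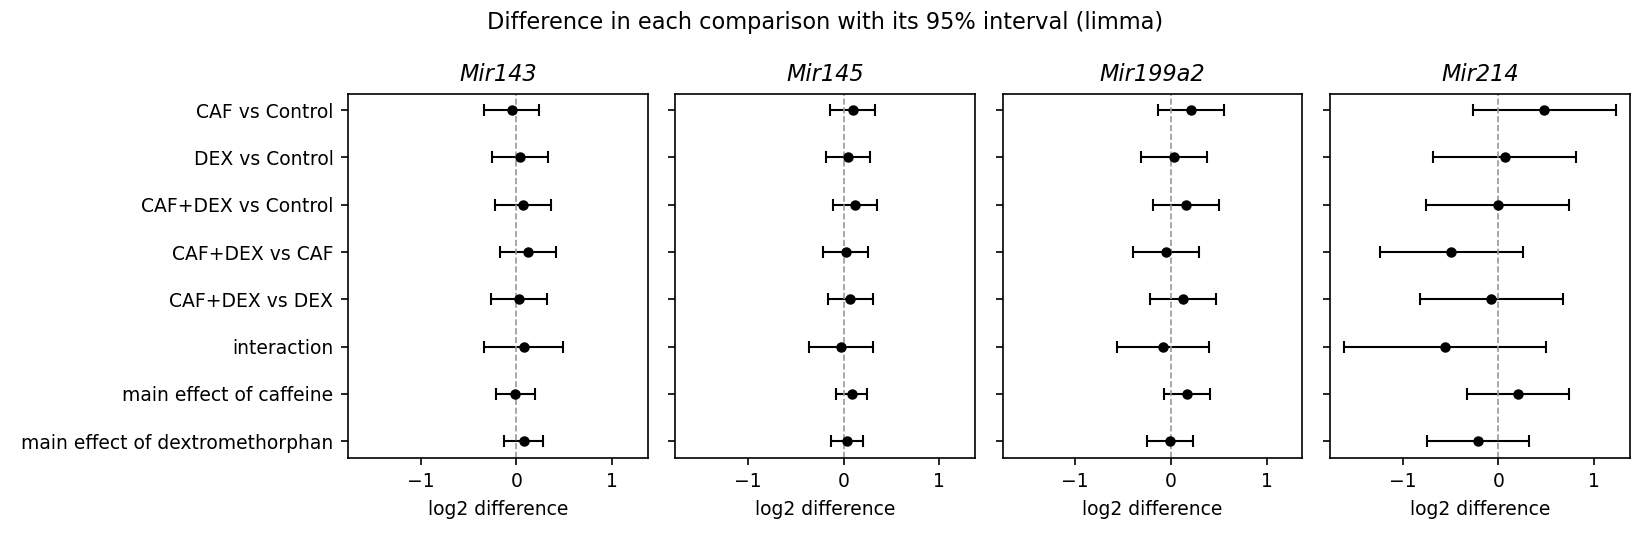
Log2 difference (x axis) of each gene in 8 comparisons (y axis), with points for the estimate and bars for its 95% interval from limma; the dashed line marks no difference. The 0 line lies within each of the 32 intervals, which are widest for Mir214.

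The second question was whether each drug changed these genes on top of the other. Dextromethorphan added to caffeine gave the only separation of groups: Mir214 had 73.7, 67.1 and 51.4 FPKM in CAF+DEX, against 101.6, 81.9 and 89.3 FPKM in CAF. All 3 CAF+DEX libraries lay below all 3 CAF libraries, and 7.17% of features were separated in either direction. In reads these were 25.5, 24 and 19 against 32, 28 and 29.5. The Poisson 95% intervals of the 2 libraries farthest apart overlapped, at 11.4 to 29.7 reads in CAF+DEX library 5 and 21.9 to 45.2 in CAF library 1. The log2 difference was -0.49 (SE 0.34, 95% interval -1.24 to 0.26), with a limma adjusted p = 0.899, where 0% of features passed. The other 3 genes overlapped in CAF+DEX against CAF, with log2 differences of 0.12 for Mir143, 0.02 for Mir145 and -0.05 for Mir199a2 (SE 0.13, 0.11 and 0.16). In CAF+DEX against DEX the log2 differences were 0.03 for Mir143, 0.07 for Mir145, 0.13 for Mir199a2 and -0.07 for Mir214, with limma adjusted p between 0.886 and 0.975; 0% of features passed there. All 4 genes overlapped between those groups, beside 13.7% of features that did not. At an unadjusted p under 0.05 there were 0 members in either comparison, beside 5.12% of features in CAF+DEX against CAF and 7.85% in CAF+DEX against DEX.

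The interaction asks whether the effect of caffeine differed with and without dextromethorphan. It was 0.08 (SE 0.19) for Mir143, -0.03 (SE 0.15) for Mir145, -0.08 (SE 0.22) for Mir199a2 and -0.56 (SE 0.49) for Mir214 on the log2 scale, each with a limma adjusted p = 0.991, and 0% of features passed. The main effect of caffeine sets CAF and CAF+DEX, 6 libraries, against DEX and Control, 6 libraries. It was 0.17 (SE 0.11, 95% interval -0.07 to 0.41) for Mir199a2, 0.21 (SE 0.24, -0.32 to 0.73) for Mir214, 0.08 (SE 0.08, -0.08 to 0.25) for Mir145 and -0.01 (SE 0.10, -0.21 to 0.20) for Mir143. No member passed, with limma adjusted p between 0.553 and 0.964, beside 0.683% of all features. The main effect of dextromethorphan was 0.08 for Mir143, 0.03 for Mir145, -0.01 for Mir199a2 and -0.21 for Mir214, with limma adjusted p between 0.958 and 0.993 and 0% of features passing. The moderated F test of any difference between the 4 groups gave adjusted p between 0.84 and 0.968 for the 4 genes, beside 0.341% of all features passing. At an unadjusted p under 0.05 the background was 5.46% for the interaction, 14.3% for the main effect of caffeine, 7.51% for that of dextromethorphan and 11.3% for the F test, with 0 members in each.

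The 2 clusters were then contrasted within each library. The summed FPKM of the miR-199a/miR-214 cluster was below that of the miR-143/miR-145 cluster in every library. It was 18350 to 29993, against 178819 to 274712 for the other, a gap of 7.24- to 11.6-fold. Mir199a2 made up nearly all of its sum (median 24188 FPKM, beside 77.8 for Mir214). Mir143 made up most of the other sum (median 210417 FPKM, beside 25250 for Mir145). The gap is thus mainly that of Mir199a2 to Mir143, while Mir145 lay close to Mir199a2. On the log2 scale the ratio of Mir199a2 plus Mir214 over Mir143 plus Mir145 was -2.86, -3.21 and -3.38 in CAF, -3.53, -3.52 and -3.16 in DEX, -3.20, -3.40 and -3.34 in CAF+DEX, against -3.54, -3.14 and -3.50 in Control. CAF library 1 had the smallest gap of all and Control library 1 the largest. Group means were -3.15 ± 0.27 in CAF, -3.40 ± 0.21 in DEX, -3.31 ± 0.10 in CAF+DEX and -3.39 ± 0.22 in Control (SD, n = 3 each). The ranges of the groups overlapped in every comparison with Control, and no p is given for a value built from the members.

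**Figure D3:**
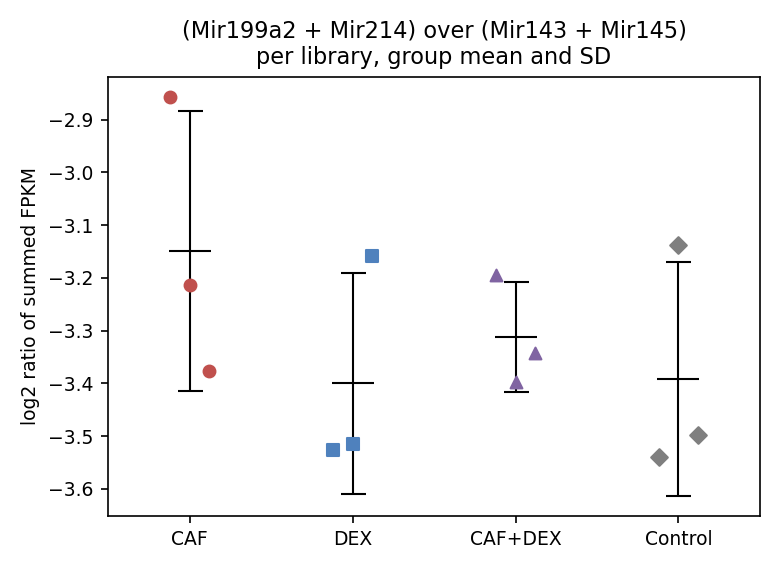
Log2 ratio of summed FPKM, Mir199a2 plus Mir214 over Mir143 plus Mir145 (y axis), by treatment group; points are libraries, bars the group mean and SD. Every library lies between -3.54 and -2.86, with CAF library 1 highest.

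Inside the clusters the 2 genes were far from equal. Mir143 exceeded Mir145 by 6.95- to 8.84-fold in FPKM, and the log2 ratio had an SD of 0.12 over the 12 libraries. It was 7.32 ± 0.33 in CAF, 8.07 ± 0.88 in DEX, 7.85 ± 0.73 in CAF+DEX and 8.10 ± 0.60 in Control (SD, n = 3 each). Mir199a2 exceeded Mir214 by 242- to 537-fold, with an SD of the log2 ratio of 0.34. Counting error of the 2 genes by itself would give an SD of 0.30, and SDs do not subtract. Among 73 pairs of neighbouring microRNA genes on the same strand within 10 kb, a comparison chosen after the values were seen, the Mir199a2 to Mir214 gap of 8.32 on the log2 scale ranked 3. The Mir143 to Mir145 gap of 2.97 ranked 31, beside a median gap of 2.66. A gap in FPKM between hairpins mixes abundance with how reads were assigned; the part of read assignment was not tested.

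Over the libraries, the 2 genes of a cluster varied in the same direction by Pearson's r, while the rank correlation missed the threshold after adjustment. Pearson's r over the 12 libraries was 0.71 for Mir143 with Mir145 (permutation p = 0.0081, adjusted p = 0.0388 over 6 pairs) and 0.69 for Mir199a2 with Mir214 (permutation p = 0.0129, adjusted p = 0.0388). Spearman's rho was 0.59 (permutation p = 0.0487) and 0.64 (permutation p = 0.0293), both with adjusted p = 0.0974. After the group means were subtracted, r was 0.77 and 0.69 (log2 FPKM), also positive within groups. Without the 2 libraries farthest from the median of the first gene, r was 0.58 for Mir143 with Mir145 (permutation p = 0.0738) and 0.75 for Mir199a2 with Mir214 (permutation p = 0.0114). The relation of Mir143 with Mir145 thus rests in part on CAF library 1 and CAF+DEX library 5. The 4 pairs across clusters had r of 0.44 for Mir143 with Mir199a2, 0.26 for Mir145 with Mir199a2, 0.12 for Mir145 with Mir214 and 0.02 for Mir143 with Mir214, with adjusted permutation p between 0.309 and 0.943. Mir143 with Mir199a2 had a rho of 0.62 (permutation p = 0.0372, adjusted p = 0.0974), and its r became 0.77 (permutation p = 0.0061) without CAF library 1 and CAF+DEX library 5. For scale, the neighbouring pairs on the same strand described above had a median r of 0.49 over all 73. The median was 0.71 over the 25 pairs in which both genes averaged at least 100 reads, which Mir214 did not. Whether r differed between pairs was not tested, and all values of a library share its read total.

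**Figure D4:**
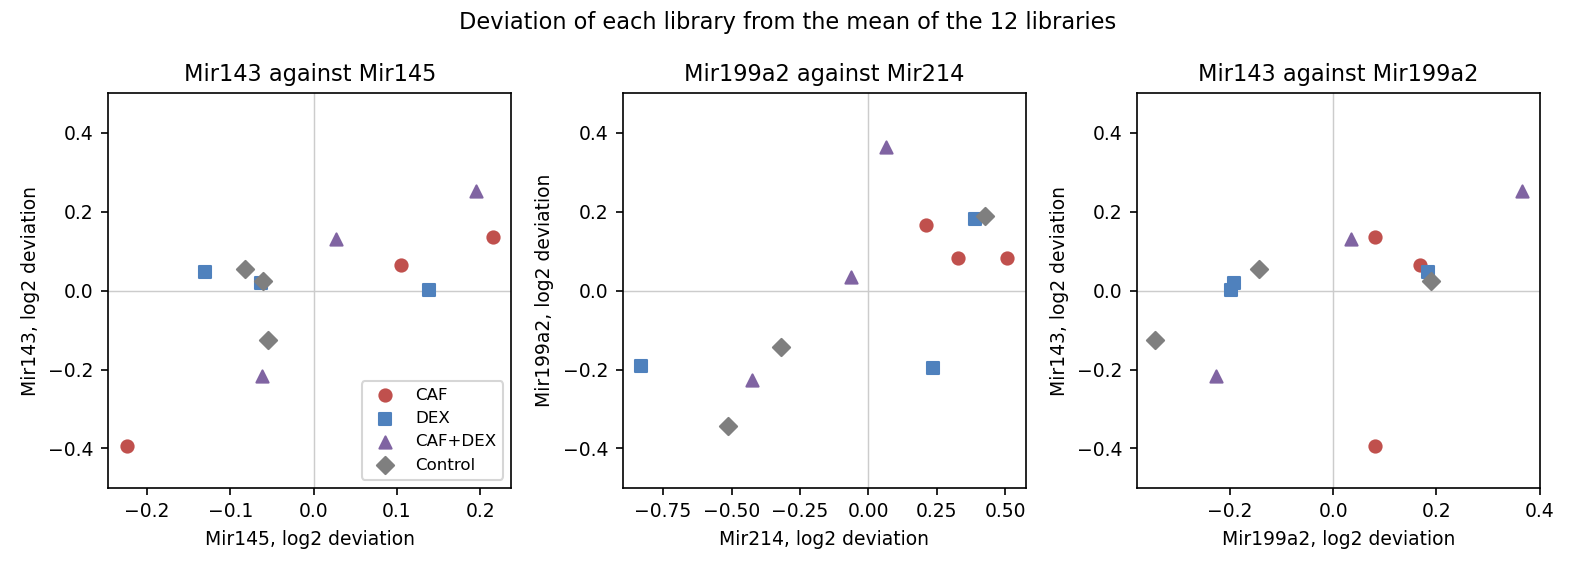
Deviation of each library from the mean of the 12 libraries in log2(FPKM + 3.8), for 3 pairs of genes; each point is a library and its shape and colour the group. Pearson's r is 0.71 and 0.69 for the partners of a cluster (left and middle panels) and 0.44 for Mir143 with Mir199a2 (right panel). By rank, rho is 0.59, 0.64 and 0.62, each with an adjusted permutation p = 0.0974. CAF library 1, the low point of the left and right panels, is 0.39 below the mean for Mir143 and 0.08 above it for Mir199a2.

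CAF library 1 was the lowest of all 12 libraries for Mir143 and Mir145, with log2 deviations from the mean of -0.39 and -0.22. It was the highest for Mir214, at 0.51 above the mean on 32 reads, while Mir199a2 was 0.0817 above its mean there, less than its pooled SD of 0.23. Control library 1 was the lowest for Mir199a2, at -0.34, and CAF+DEX library 1 the highest for Mir199a2 and Mir143, at 0.36 and 0.25. Among 135 features averaging at least 100 reads, the pooled SD within groups was 0.23 for Mir199a2, 0.19 for Mir143 and 0.15 for Mir145, beside a median of 0.11, which ranked them 18, 28 and 44 from the most variable.

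The features whose pattern was most like each gene were found by Pearson's r over the 12 libraries among features averaging at least 100 reads, as a description without a test. For Mir143 they were Mir195 (0.85), Mir26a-2 (0.81) and Mir125a (0.80), and after group means were subtracted Mir26a-2 (0.93), Mir125a (0.92) and Mir26a (0.91). Its cluster partner Mir145 ranked 10 of 134 features for Mir143, and 13 after subtraction. For Mir145 they were Mir195 (0.74), Mir351 (0.73) and Mir503 (0.72), and after subtraction Mir143 itself (0.77), Mir23a (0.76) and Mir195 (0.75). Mir195 thus came first for both genes of that cluster over the 12 libraries, but for neither after subtraction. For Mir199a2 they were Mir351 (0.65), Mir96 (0.64) and Mir125a (0.58), and after subtraction Mir146b (0.87), Mirlet7b (0.82) and Mirlet7c2 (0.81). For Mir214 the nearest feature was Mir199a2 (0.69), followed by Mir872 (0.56) and Mir30d (0.56), and after subtraction Mir15b (0.77), Mir221 (0.71) and Mir199a2 (0.70). Mir26a and Mir26a-2 give the same mature product and may share reads.

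Other microRNAs linked to stellate cell activation and collagen control were given by a list of 12 genes, of which 11 were tested and Mir218-1 was at 0 in all libraries. None passed in any comparison: 0 were called higher and 0 lower, beside 0.683% of all features in CAF against Control. Their median log2 difference was 0.00 in CAF against Control, 0.00 in DEX against Control and 0.06 in CAF+DEX against Control. Mir21, a microRNA raised in many fibrotic organs, was the most abundant, at 586998 FPKM on average, and had log2 differences from Control of 0.04 in CAF, 0.01 in DEX and -0.05 in CAF+DEX. Mir27b and Mir27a, which are linked to fat storage in stellate cells, had 0.08 and 0.00 in CAF against Control. In DEX against Control they had -0.13 (limma adjusted p = 0.841) and -0.01, and in CAF+DEX against Control -0.01 and 0.05. Mir195, of the miR-15 and miR-16 seed family, had 0.00 (SE 0.09) in CAF against Control. Mir29b1 and Mir29b-3, copies of a repressor of collagen transcripts that may share reads, had log2 differences from Control of 0.21 and 0.23 in CAF (limma adjusted p = 0.107 and 0.0898), 0.20 and 0.20 in DEX (limma adjusted p = 0.3144 for each) and 0.24 and 0.25 in CAF+DEX (limma adjusted p = 0.0914 for each). Summed FPKM of the list was 886267 to 936485 in CAF and 834939 to 921599 in DEX; CAF+DEX had 791457 to 982138 and Control 858453 to 890518.

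The 5 listed markers of striated and smooth muscle were low beside Mir143, Mir145 and Mir199a2, and none was called in any comparison. The list did not take in Mir1b, a neighbour of Mir133a-2 that averaged 2714 FPKM, more than any of these 5. Mir1b varied with Mir133a-2 over the libraries (Pearson's r of 0.95), and the sums below leave it out. The 5 listed genes summed to 142.8 to 193.7 FPKM in CAF and 225.9 to 363.9 in DEX; CAF+DEX had 190.7 to 420.7 and Control 222.05 to 445.3. Mir133a-2, a microRNA of heart and skeletal muscle that is also found in smooth muscle, had the highest mean of these 5, at 138 FPKM. Its log2 difference was -1.26 (SE 0.57, limma adjusted p = 0.361) in CAF against Control. Mir490 averaged 74.4 FPKM and Mir206, of skeletal muscle, 52.0 FPKM; these 3 were above 0 in 12 of 12 libraries, Mir133b in 7 and Mir208b in 8. The sum of these 5 genes, without Mir1b, ran opposite to Mir199a2 over the 12 libraries, with r = -0.79 (permutation p = 0.0028, adjusted p = 0.0336) and rho = -0.83 (permutation p = 0.0014, adjusted p = 0.0386). That sum rested on few reads, with means of 26.1 for Mir133a-2, 19.7 for Mir490 and 13.8 for Mir206. A sum that includes Mir1b was not tested. Without CAF+DEX library 1 and Control library 1, the farthest for Mir199a2, r was -0.76. For Mir214 r was -0.68 (permutation p = 0.0158, adjusted p = 0.1095), for Mir143 -0.14 and for Mir145 -0.0832. These p-values were adjusted over 28 relations, the 4 genes with the summed level of each of 7 lists, which were looked at after other results were known. The permutations moved libraries across treatment groups, and r after subtracting group means was not computed for list sums. Differences between groups and variation within groups therefore cannot be told apart in these relations. The part of muscle RNA in the members' values was not tested.

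Markers of other liver cells varied as follows. The 7 hepatocyte genes, led by Mir192, Mir101-2, Mir148a and Mir194-2, summed to 3476690 to 3668097 FPKM in CAF and 3365946 to 3431494 in DEX. CAF+DEX had 3327315 to 3664051 and Control 3431738 to 3670928, and 0 were called. Their sum ran opposite to Mir143 over the 12 libraries, with r = -0.85 (permutation p = 0.0005, adjusted p = 0.0132 over the 28 relations), rho = -0.59 (permutation p = 0.0463, adjusted p = 0.2163) and r = -0.73 without CAF library 1 and CAF+DEX library 5; both are shares of 1 read total. The 6 leukocyte genes summed to 170746 to 209357 FPKM in CAF and 252967 to 288492 in DEX. CAF+DEX had 191008 to 234448 and Control 256370 to 291122, and Mir142 and Mir146a were called lower in CAF against Control, with log2 differences of -0.60 and -0.49 (limma adjusted p = 0.0293 for each). Neither call in CAF against Control was made with no filter, with only the 2 groups compared, or without CAF library 2, CAF library 5, Control library 1 or Control library 3. In the main effect of caffeine both were also called lower, at -0.45 for Mir142 and -0.47 for Mir146a (limma adjusted p = 0.0163 and 0.0031). Mir146a was called in the moderated F test as well (adjusted p = 0.0254). Erythroid genes summed to 7502 to 14237 FPKM in CAF and 11313 to 15213 in DEX. CAF+DEX had 10589 to 11747 and Control 12584 to 15141, with 0 of 3 called. Their sum ran opposite to Mir145, with r = -0.77 (permutation p = 0.0036, adjusted p = 0.0336), rho = -0.70 (permutation p = 0.0145, adjusted p = 0.2033) and r = -0.66 without CAF library 5 and CAF+DEX library 1. The other relations with list sums did not reach an adjusted p of 0.05 for r. For the hepatocyte and erythroid sums too, r within groups was not computed, so a difference between groups may enter these values. Epithelial genes, Mir200b, Mir429 and Mir141, summed to 7255 to 15754 FPKM over all groups, with 0 of 3 called. The endothelial list had 1 feature, Mir126a, at 20.2 to 67.7 FPKM, and 0 were called. The features are small RNAs, so messenger RNA markers of stellate or smooth muscle cells could not be read, and the cell source of the 4 genes was not tested.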

How the data were processed

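Small RNA libraries were made from total liver RNA with a QIAseq kit that adds unique molecular indices, according to the labels; no source used here says if these were collapsed. Cutadapt 3.7, STAR 2.7.11b and featureCounts of Subread 2.0.6 on rn7 are named, without parameters, in the submitters' processing notes. The table holds FPKM as deposited; multiplied by length in kilobases they sum to 1000000 per library, so only listed features enter the total.

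Read totals were recovered as those that turn all values into multiples of 0.01 read, and 50.5 to 58.3% of features above 0 then had whole reads. Within groups, libraries differed by a chi-square per degree of freedom of 51.4 to 265.8 (135 features), and no library repeats another. Column headers gave the group but no sample title. Tests used log2(FPKM + 3.8), the added constant being the 10th percentile of nonzero values; this scale shrinks the changes of rare features. One limma-trend fit (limma 3.58.1, R 4.3.3) of 4 group means held all 12 libraries, with Benjamini-Hochberg adjustment over 293 features and a threshold of 0.05. The code was checked on simulated normal values drawn with the spreads of this fit. That check does not show how well the model suits these libraries. Correlations between the 4 genes and with list sums were tested with 100000 permutations, two-sided, of libraries across all groups. All 4 genes, the 3 features most like each, and up to 4 of the most abundant genes of each list are named, beside those called. The members and lists were chosen with earlier results of these data known. Alternatives were 2 pseudocounts, 2 filters, 2 scalings, limma-voom, a fit of the 2 groups compared, and each library left out.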

Additional observations from a re-analysis of the deposited data

How the results depend on the processing

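The 4 genes stayed below the threshold in 704 of 704 tests under the alternatives, with a lowest limma adjusted p of 0.258 and 6 tests at an unadjusted p under 0.05. Of 628 log2 differences recomputed, 51 changed direction, all from small values; the cause was not tested. With quantile normalization they were -0.0444 for Mir143 in DEX against Control and -0.0389 in CAF+DEX against Control, 0.0347 for Mir214 in CAF+DEX against Control, -0.0526 for Mir145 in CAF+DEX against CAF and 0.0006 for Mir199a2 in the dextromethorphan main effect. With median-of-ratios scaling they were 0.0028 for Mir214 in CAF+DEX against Control and 0.0125 for Mir143 in the caffeine main effect. Leaving out 1 library at a time gave the remaining changes of direction. The log2 difference of Mir143 ran from -0.15 to 0.12 in CAF against Control, -0.0169 to 0.0741 in DEX against Control, -0.0274 to 0.21 in CAF+DEX against Control, -0.0451 to 0.26 in CAF+DEX against CAF, -0.0658 to 0.17 in CAF+DEX against DEX, -0.0835 to 0.22 in the interaction, -0.058 to 0.0746 in the caffeine main effect and -0.0034 to 0.15 in the dextromethorphan main effect. The log2 difference of Mir145 ran from -0.0307 to 0.10 in DEX against Control, -0.11 to 0.11 in CAF+DEX against CAF, -0.15 to 0.0652 in the interaction and -0.0295 to 0.0804 in the dextromethorphan main effect. The log2 difference of Mir199a2 ran from -0.0948 to 0.18 in DEX against Control, -0.21 to 0.0893 in CAF+DEX against CAF, -0.0278 to 0.27 in CAF+DEX against DEX, -0.24 to 0.0585 in the interaction and -0.0879 to 0.0611 in the dextromethorphan main effect. The log2 difference of Mir214 ran from -0.16 to 0.45 in DEX against Control, -0.20 to 0.27 in CAF+DEX against Control and -0.45 to 0.16 in CAF+DEX against DEX.

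Counts over all features moved more. CAF against Control had 2 calls, 0 with no filter (341 features) or with only the 2 groups compared, 4 with quantile normalization and 0 to 10 when 1 library was left out. The caffeine main effect had 2 calls, 10 with the stricter filter (a mean of at least 10 reads, 187 features), 5 with quantile normalization, 11 with median-of-ratios scaling, 4 with limma-voom and 1 to 10 when 1 library was left out. CAF+DEX against Control had 0 calls, 2 with the stricter filter and 1 with quantile normalization. CAF+DEX against DEX had 0 calls, 1 with quantile normalization and 0 to 1 when 1 library was left out; DEX against Control and the interaction also gave 0 to 1. The F test had 1 call, 0 with no filter and 0 to 4 when 1 library was left out. With read shares in place of FPKM, the log2 ratio between the clusters was -3.05 in CAF, -3.31 in DEX, -3.22 in CAF+DEX and -3.30 in Control. No paired analysis was possible because the column headers could not be tied to the numbers of the sample titles. Mir214 rests on few reads, at 13.5 to 36 per library.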
